A study of Zea mays with 10 samples.

Results

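The maize genome carried 1103 intervals that scored highly for the transcription factor FEA4 in 1 chromatin immunoprecipitation replicate and were matched by no peak in the other. They were selected on measured values: a peak score in replicate 2 at or above a threshold that fell between 117.99 and 118.04, a place on chromosomes 1 to 10, and no overlap of 1 bp or more with any replicate 1 peak. They made up 1103 of 9640 replicate 2 peaks on these chromosomes and are called high-scoring replicate 2-only peaks here. The ChIP-seq material was young male inflorescences, tassel primordia of 2 to 5 mm from field-grown plants, in 2 immunoprecipitated libraries (FEA4 ChIP replicates 2 and 1) beside 2 input libraries. The series also holds RNA-seq of ears from fea4 mutants and fea4/+ siblings, which was not used here because its table places no gene on the genome.

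All 4 ChIP-seq libraries share the same background, so no group lacks the tagged protein. The labels give the genotype as normal B73, and the harvested plants carried the transgene pFEA4-YFP::FEA4, in which a YFP tag is joined to FEA4. The families held a single integration event, A399S1-7, which complemented the mutant, and the antibody was an anti-GFP antibody, which binds YFP. The tag was therefore followed in 1 transgenic event, and a control precipitation from plants without the tag was not analysed here. The labels do not say whether the replicates came from separate plants or pools, or how many reads each library held. The labels place both input and both ChIP libraries on a single sequencing run.

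FEA4 (FASCIATED EAR4) belongs to the bZIP family, whose members bind DNA as dimers through a basic region next to a leucine zipper. The protein limits the size of shoot and inflorescence meristems, and its relative PERIANTHIA acts in the floral meristems of Arabidopsis. In ChIP-seq, crosslinked chromatin is precipitated with an antibody and sequenced, and the peak caller MACS marks intervals where fragments pile up above the input. Each interval has a score and a summit, the base where the most fragments overlap. The score is taken here as the one this generation of MACS derives from the p-value of the enrichment, but the lists have no header that gives its scale, so the threshold and bands stand in the units of the lists. Maize chromosomes carry most of their genes towards both ends, with long stretches of repeats around the centromeres. Gene models and sequence of the build of these peaks, AGPv2, were not used here, so the intervals are given by position alone.

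The high-scoring replicate 2-only peaks lay mostly in the lower part of the score range above the threshold. Of 3854 replicate 2 peaks at or above the threshold, 1103 (28.6%, exact Clopper-Pearson 95% interval 27.2% to 30.1%) overlapped no replicate 1 peak and 2751 did. Among replicate 2 peaks of any score, 58% overlapped none. Both shares follow from the overlap that the rule itself uses and serve as a scale only. Intervals on shares cover counting error only, and peaks of 1 list are not replicates of each other, so no p-value was computed for any class.

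The share of replicate 2 peaks without a match fell with every step in score. From score 50 to 60 it was 86% of 1652 peaks, and from 100 to the threshold it was 62.2% of 815. From the threshold to 150 it was 51.9% of 931 (95% interval 48.6% to 55.1%), so peaks with and without a match were about equally common just above the threshold. It was 36.5% of 994 peaks from 150 to 200, 23.3% of 944 from 200 to 300 and 5.79% of 622 from 300 to 500. At 500 and above, 1 of 363 peaks was unmatched. In number, 483 of the 1103 peaks scored under 150, 363 scored 150 to 200, 220 scored 200 to 300 and 36 scored 300 to 500.

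**Figure D1:**
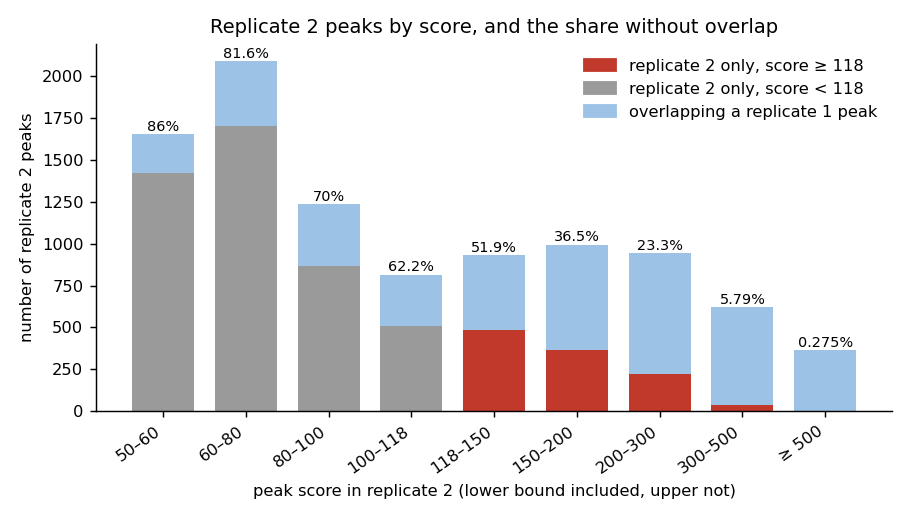
Number of replicate 2 peaks on chromosomes 1 to 10 in bands of peak score (bars), split into peaks without an overlapping replicate 1 peak (red above the threshold, grey below it) and peaks with one (light blue), with the percentage without overlap above each bar. That percentage falls from 86% in the lowest band to 0.275% in the highest.

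In the order of scores within replicate 2, the first unmatched peak stood at rank 309. None of the top 200 peaks was unmatched, 6 of the top 500 were, 40 of the top 1000 and 278 of the top 2000. The strongest replicate 2 peaks were thus nearly all matched, and the unmatched ones thickened towards the threshold. The threshold itself cut through a continuous range. The lowest 5 scores inside it were 118.04 (2 peaks), 118.09, 118.12 and 118.15, with summit heights of 6 to 14, and the 5 unmatched peaks just outside had scores of 117.81 to 117.99 and summit heights of 7 to 16.

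The reverse was rare. Of 1382 replicate 1 peaks above the same score, 18 (1.3%, 95% interval 0.774% to 2.05%) overlapped no replicate 2 peak, and of 5018 replicate 1 peaks of any score 903 (18%) did not. The replicate 2 list was the longer one, with 9644 peaks in all and a lowest score of 50.01, against 5020 peaks and a lowest score of 50.03 in replicate 1. Scores of the lists were not taken as comparable. A score derived from a p-value can vary with the depth of a library, which the files do not record. The unequal length and scores of the lists move with the count of unmatched peaks, and their part in it was not tested.

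The replicate 1 list, whose scores start at 50.03, gave no value for the high-scoring replicate 2-only peaks. What it recorded for the matched peaks was higher in each higher band of replicate 2 score above the threshold, beside a median of 82.73 over its whole list. The 448 matched peaks that scored from the threshold to 150 in replicate 2 had a median summit height of 12 there and of 6 in the replicate 1 peak they overlapped. The replicate 1 score of those 448 had a median of 79.27 and quartiles of 64.49 and 108.7, and 82 of them (18.3%) scored under 60. The replicate 1 score had a median of 86.74 for the 631 matched peaks of 150 to 200, 103.56 for the 724 of 200 to 300 and 134.14 for the 586 of 300 to 500. For the 362 matched peaks that scored 500 or more in replicate 2, the replicate 1 score had a median of 245.9 and 2 scored under 60. Over all 4044 matched peaks the scores of the replicates had a Pearson's r of 0.74 and a Spearman's rho of 0.556, a description across sites that share the same tissue, transgene and run.

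The high-scoring replicate 2-only peaks were somewhat narrower, and had lower summits, than the matched peaks above the same score threshold. Their width ran from 249 to 2234 bp with a median of 787 bp and quartiles of 646.5 and 1007.5 bp. The matched peaks ran from 301 to 3836 bp with a median of 901 bp. The 4493 unmatched peaks below the threshold had a median of 594 bp, so the high-scoring unmatched peaks stood between these classes. Widths of 500 to 1000 bp held 740 of the 1103 peaks, 396 of them under 750 bp, and 35 were 1500 to 2000 bp wide and 3 wider still, against 210 and 62 of the 2751 matched peaks.

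Summit heights set the classes further apart than widths did. The high-scoring replicate 2-only peaks had heights of 5 to 31 with a median of 12 and quartiles of 9 and 14. The matched peaks had heights of 5 to 88 with a median of 17, and the unmatched peaks of lower score had 3 to 21 with a median of 7. Heights of 10 to 14 were the most common among the high-scoring unmatched peaks, with 559 of 1103, and 17 of them (1.54%) reached 25, against 593 of the matched peaks (21.6%). Score and height enter the rule or come from the same contrast as it, so these differences are descriptions.

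**Figure D2:**
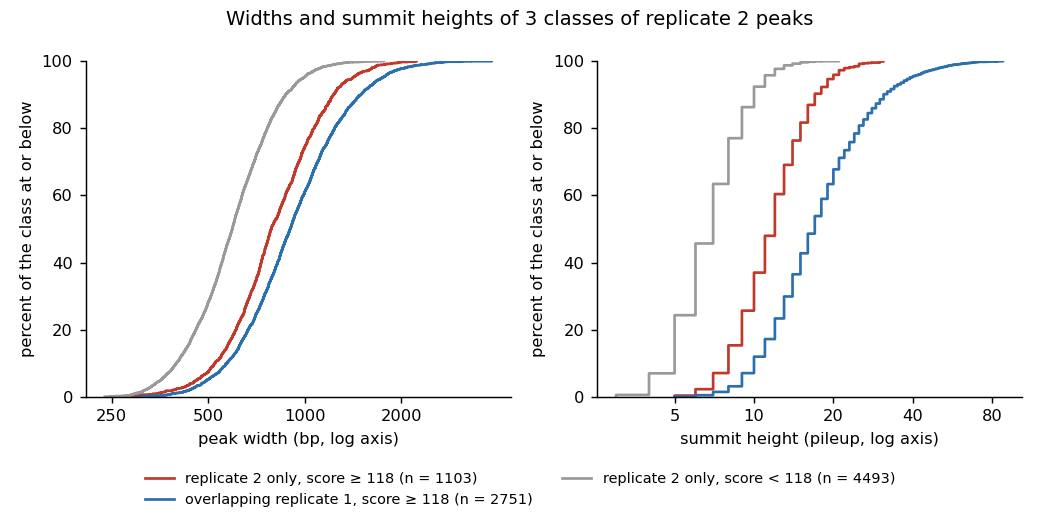
Cumulative percentage of peaks (vertical axes) at or below a given width in bp (left) and summit height (right), both on log axes, for the 1103 high-scoring replicate 2-only peaks (red), the 2751 matched peaks above the same threshold (blue) and the 4493 replicate 2-only peaks below it (grey). In both panels the red curve lies between the others, with medians of 787, 901 and 594 bp and heights of 12, 17 and 7 for the red, blue and grey classes.

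The high-scoring replicate 2-only peaks also scored lower, with a median of 157.9 against 234.5 in the matched peaks, so widths and heights were set side by side within bands of score. Within bands up to 300 the widths were close, whereas the heights of the unmatched peaks were lower in every band compared. The bands held score alike only in part. Median scores were 132.33 in unmatched and 132.5 in matched peaks from the threshold to 150, and 169.23 and 172.29 from 150 to 200. They were 228.28 and 242.32 from 200 to 300, and 345 and 369.7 from 300 to 500. How far the height differences go with these scores was not tested. From the threshold to 150 the median width was 740 bp in unmatched and 763 bp in matched peaks, and from 200 to 300 it was 886.5 and 905.5 bp. The median height was 10 in unmatched and 12 in matched peaks from the threshold to 150, 12 and 14 from 150 to 200, and 15 and 17 from 200 to 300. From 300 to 500 it was 19 in the 36 unmatched peaks and 22 in the 586 matched ones, and there the unmatched peaks were wider, with 1148 and 1000 bp.

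Within bands of score, which held score alike only in part, peaks with low summits were more often without a match. How far this goes with score inside a band was not tested. From the threshold to 150, 58 of 83 peaks with a summit under 8 were unmatched (69.9%, 95% interval 58.8% to 79.5%), as were 34 of 112 with a summit of 15 to 19 (30.4%, 22% to 39.8%) and 2 of 16 with a summit of 20 or more. From 150 to 200 the shares were 56.7% of 30 peaks with a summit under 8, 27.3% of 275 with 15 to 19 and 7.46% of 67 with 20 or more. Width did not sort them this way. From the threshold to 150 the unmatched share was 49.5% of 91 peaks under 500 bp, 54.9% of 364 peaks of 500 to 750 bp and 48.4% of 157 peaks of 1000 to 1500 bp, with overlapping intervals.

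**Figure D3:**
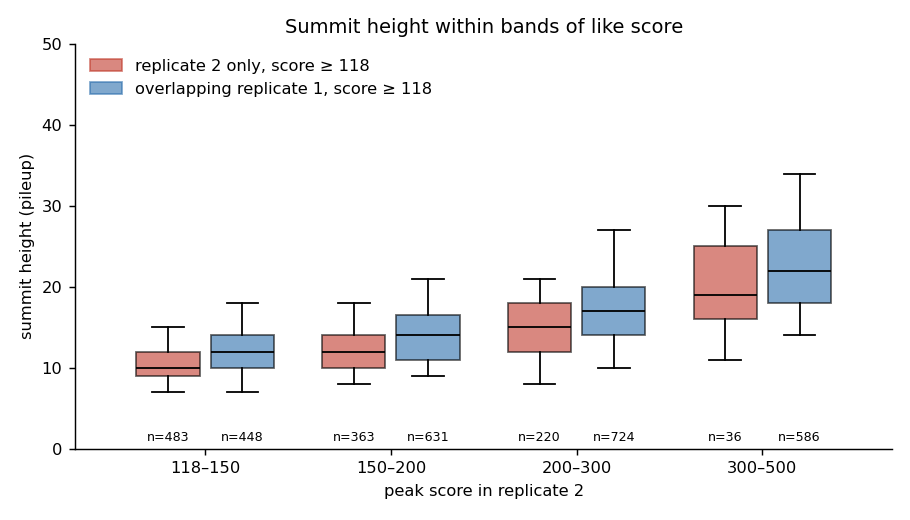
Summit height (vertical axis, pileup of fragments) of high-scoring replicate 2-only peaks (red, left of each pair) and matched peaks (blue) within 4 bands of replicate 2 score; boxes show medians and quartiles, whiskers the 5th and 95th percentiles, and n the number of peaks. In each of the 4 bands the red median is lower, by 2 in the 3 lower bands and 3 in the highest.

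Height and width were loosely tied within the class. Across the 1103 peaks, which come from a single library, score and height had a Spearman's rho of 0.488, score and width 0.245, and width and height −0.189. In the 2751 matched peaks the values were 0.742, 0.369 and 0.09. Scores of the matched peaks spanned a wider range, up to 2447.17 against 532.05 in the unmatched peaks. The part of this range in the difference between the correlations was not tested. Among the unmatched peaks the 476 under 750 bp had a median height of 12 and the 283 of 1000 bp or more had 11, whereas in the matched peaks the values were 16 and 18. By these medians the wide unmatched peaks were no taller than the narrow ones. Summits lay at the middle of the interval on the median in both classes (50% of the way along).

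The highest-scoring unmatched peaks were of several shapes. The first, at chr5:193823484-193824399, had a score of 532.05, a summit height of 27 and a width of 916 bp, and lay 3043 bp from the nearest replicate 1 peak, which scored 74.8. The second, at chr1:223832056-223833306, scored 487.16 with a height of 20 and a width of 1251 bp, and the nearest replicate 1 peak, at 553 bp, scored 53.83. The third, at chr7:162067757-162069008, scored 447.65 with a height of 16, and a replicate 1 peak of score 98.48 lay 697 bp away. These 3 peaks had a replicate 1 peak close by but not within their own bounds.

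The next ones stood farther from replicate 1. The peak at chr1:198933928-198934978 scored 444.14 with a height of 18 and had its nearest replicate 1 peak at 181075 bp. That at chr10:121370794-121371844 scored 441.91 with a height of 25, at 80557 bp. The peak at chr8:165550995-165552642 scored 433.28 with a height of 16 and a width of 1648 bp, at 33642 bp. Distance to replicate 1 thus ranged widely even at the top of the class.

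The 4 others of the top 10 showed the same range. The peak at chr6:148596318-148597128 (score 404.36, height 26) lay 34256 bp from replicate 1, and that at chr8:22247433-22248080 (score 396.28, height 24) lay 168162 bp away. The peak at chr3:195751623-195752889 (score 398.3, height 15) lay 1117 bp from a replicate 1 peak of score 50.36. The peak at chr2:181125713-181126641 (score 399.82, height 17) lay less than 200 bp from a replicate 1 peak of score 206.61 and height 15. On the chromosomes not yet named, the highest were chr4:81249245-81250713, with a score of 320.48, a height of 24 and 481927 bp to replicate 1, and chr9:152057509-152059104, with 335.82, a height of 17 and 72516 bp.

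The tallest summits sat on intervals of ordinary width. The peak at chr2:211723984-211724662 reached a height of 31 over 679 bp with a score of 359.36. Heights of 30 were reached at chr2:198893315-198893902 (588 bp, score 337.42), chr3:144865634-144866346 (713 bp, score 352.22), chr5:195833592-195834481 (890 bp, score 278.56) and chr8:108274541-108275205 (665 bp, score 273.98). These 5 were 588 to 890 bp wide, against a median of 787 bp for the class.

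The widest 5 intervals had summit heights of 9 to 16. Those of 15 and 16 lay above the upper quartile of the class, 14, and those of 9 and 11 lay below its median of 12. The interval at chr1:54129266-54131499 spanned 2234 bp with a height of 16 and a score of 351.43, and that at chr2:12253649-12255857 spanned 2209 bp with a height of 16 and a score of 232.39. The interval at chr7:152396570-152398659 spanned 2090 bp with a height of 15. The remaining ones of the widest 5, both on chromosome 3, spanned 1991 bp (chr3:172670084-172672074, score 302.39) and 1962 bp (chr3:6686438-6688399, score 281.06) with heights of 9 and 11. The scores of these 5 ran from 232.39 to 354.39, while their heights were at most 16.

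The narrowest 5 were 249 to 308 bp wide. They lay at chr3:69939140-69939388 (249 bp, height 9, score 154.39), chr5:208953376-208953648 (273 bp, height 9, score 158.61), chr7:160612831-160613129 (299 bp, height 9, score 119.59), chr3:16467428-16467730 (303 bp, height 12, score 183.35) and chr3:216319281-216319588 (308 bp, height 10, score 141.91). In each of them the summit stood 50% of the way along the interval.

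Along the chromosomes the high-scoring replicate 2-only peaks followed the same pattern as the other FEA4 peaks, dense towards the ends and sparse in the interior. Of the 1103 peaks, 751 (68.1%, 95% interval 65.2% to 70.8%) lay in the outer 25% at either end of their chromosome, together 50% of its length and called its outer parts here. Among matched peaks above the threshold the share was 70.2% (68.5% to 71.9%), among unmatched peaks of lower score 70% and among replicate 1 peaks of any score 70.3%. The extent of each chromosome was taken as the highest coordinate in either peak list. The share without a match among replicate 2 peaks above the threshold was 28% (26.3% to 29.7%) in the outer parts and 30.1% (27.4% to 32.8%) in the inner part, and the intervals overlap.

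With each chromosome cut into 10 equal parts, part 10 held 209 of the high-scoring unmatched peaks (18.9%), part 1 held 173 (15.7%) and part 5 held 33 (2.99%). Part 7 held 124 (11.2%), against 237 of the matched peaks (8.62%). There the unmatched share of the peaks above the threshold was the highest of the 10, at 34.3% (29.5% to 39.5%). The other parts had 26.4% to 32.4%, and the interval of part 7 overlaps those of its neighbours.

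**Figure D4:**
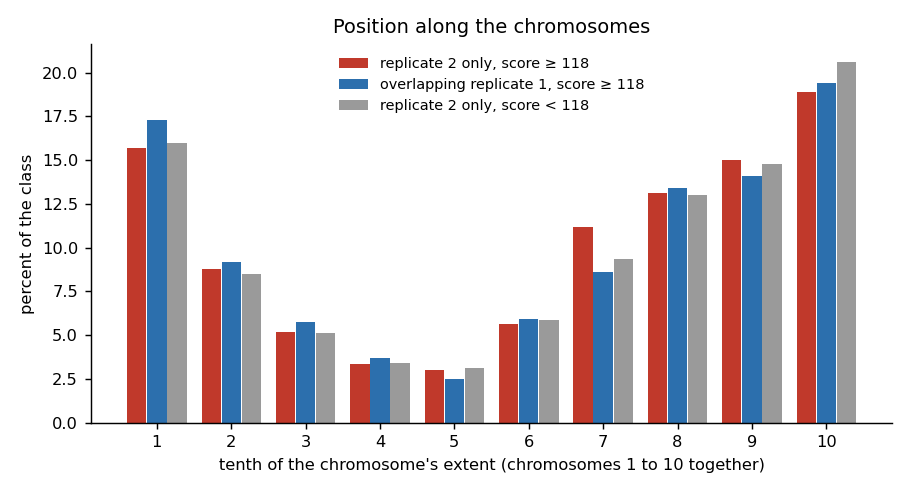
Percentage of each class (vertical axis) in each of 10 equal parts of the chromosome extent (horizontal axis, chromosomes 1 to 10 added up) for high-scoring replicate 2-only peaks (red), matched peaks above the threshold (blue) and replicate 2-only peaks below it (grey). All 3 classes are highest in part 10 (18.9% of the red class) and lowest in part 5 (2.99% of the red class).

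All 10 chromosomes held such peaks, 68 on chromosome 9 to 169 on chromosome 1. Their share of the replicate 2 peaks above the threshold ran from 24.4% on chromosome 9 (19.5% to 29.8%) and 24.5% on chromosome 8 to 32.5% on chromosome 6 and 32.9% on chromosome 3 (28.4% to 37.6%). Per Mb there were 0.435 on chromosome 9 to 0.612 on chromosome 2. The share in the outer parts was 84.8% of 145 peaks on chromosome 2, against 82.1% for its matched peaks, and 52.3% of 107 on chromosome 4, against 65% for its matched peaks. On the other 8 chromosomes it was 61.5% to 74.4% in unmatched and 66.4% to 72.7% in matched peaks.

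In windows of 1 Mb, 742 of 2060 windows (36%) held at least 1 high-scoring unmatched peak, and 75 held 3 or more. The fullest had 6. One of them, on chromosome 6 from 145000001 to 146000000, held 6 replicate 2 peaks above the threshold, and all 6 were unmatched. The other, on chromosome 7 from 159000001 to 160000000, held 11 such peaks, 6 of them unmatched. The longest stretch between consecutive high-scoring unmatched peaks was 48291148 bp on chromosome 1, from 106896175 to 155187324. It held 48 replicate 2 peaks of any score, among them 9 matched peaks above the threshold.

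Most high-scoring replicate 2-only peaks lay more than 10000 bp from any replicate 1 peak. The bases between a peak and the nearest replicate 1 peak ran from 17 to 4815226 bp, with a median of 50437 bp and quartiles of 5594.5 and 177800 bp. Within 500 bp there were 58 peaks (5.26%, 95% interval 4.02% to 6.74%), within 1000 bp 110 (9.97%) and within 10000 bp 350 (31.7%, 29% to 34.6%). Beyond 1000000 bp there were 30 (2.72%). As a scale, replicate 1 peaks lay a median of 36197 bp from the nearest other replicate 1 peak, with quartiles of 3035.75 and 160835.5 bp.

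The unmatched peaks of lower score were a little farther off, with a median of 73046 bp and 26.4% within 10000 bp (25.1% to 27.7%). The matched peaks above the threshold were closer to the nearest replicate 1 peak they did not overlap, with a median of 32011 bp and 37.5% within 10000 bp (35.7% to 39.3%). The high-scoring unmatched peaks in the outer parts had a median distance of 37701 bp, against 94216.5 bp for those in the inner part, where peaks of every class were sparser.

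**Figure D5:**
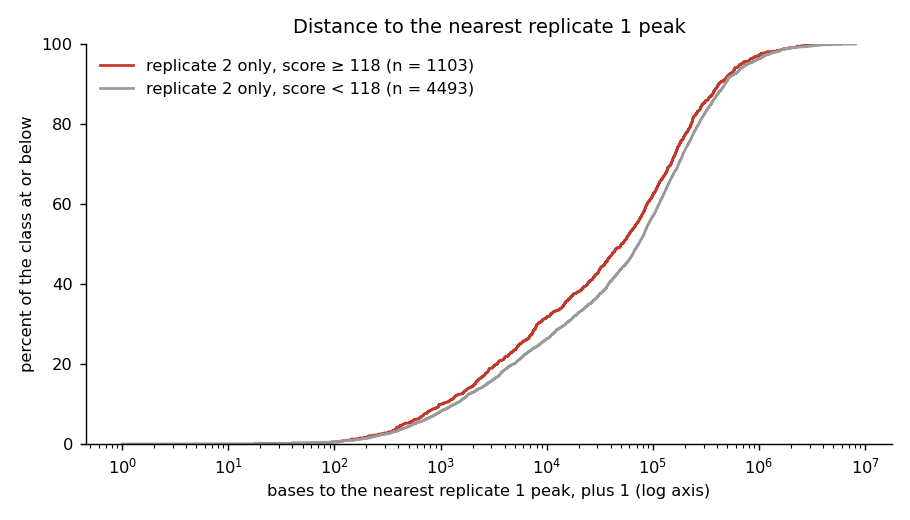
Cumulative percentage of peaks (vertical axis) whose nearest replicate 1 peak lies within a given number of bases (horizontal axis, log scale, 1 added) for high-scoring replicate 2-only peaks (red) and replicate 2-only peaks below the threshold (grey). The red curve reaches 31.7% at 10000 bp, where the grey curve reaches 26.4%, and their medians are 50437 and 73046 bp.

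Distance did not follow score in one direction. Its median was 44419 bp for scores from the threshold to 150, 66589 bp for 150 to 200, 45149.5 bp for 200 to 300 and 15421.5 bp for 300 to 500. In that last band 10 of 36 peaks lay within 1000 bp of a replicate 1 peak (27.8%, 95% interval 14.2% to 45.2%), against 49 of 483 (10.1%, 7.6% to 13.2%) from the threshold to 150. The band of 300 to 500 is small, and its interval is wide.

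The nearest replicate 1 peak was usually itself matched by some other replicate 2 peak. This held for 913 of the 1103 (82.8%) and for 48 of the 58 within 500 bp (82.8%), close to the 4115 of 5018 replicate 1 peaks on these chromosomes that overlap replicate 2. For the 58 within 500 bp, the unmatched peaks had a median score of 153 and a median height of 11. The replicate 1 peaks beside them had 87.68 and 7, against 82.73 and 6 over all replicate 1 peaks on these chromosomes. Only the unmatched peaks were chosen by score, so these differences are descriptions.

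The 5 nearest pairs did not touch by 17 to 74 bp. The interval chr6:134847825-134848689 (score 122.32, height 10) lay 17 bp from the replicate 1 peak chr6:134847242-134847807, which scored 62.05 with a height of 3. The interval chr1:277348242-277349862 (306.99, height 11) lay 19 bp from chr1:277349882-277350606, which scored 57.43, and chr7:159410486-159411276 (149.41, height 25) lay 39 bp from chr7:159409603-159410446, which scored 138.91. The others, chr9:13754959-13755325 and chr2:12253649-12255857, lay at 62 and 74 bp. Measured between summits, the shortest distance in the whole class was 475 bp.

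The most remote peaks were on chromosomes 6, 2 and 8. A pair on chromosome 6, chr6:40950803-40951446 (score 159.05, height 13) and chr6:40949594-40950549 (score 147.17, height 10), lay 253 bp apart and 4815226 and 4814017 bp from the nearest replicate 1 peak. The interval chr2:114352986-114353780 (179.26, height 12) lay 3529987 bp away, chr8:60632749-60633469 (124.97, height 7) 2821107 bp and chr6:79549767-79550876 (130.48, height 7) 2635483 bp. Their positions ran from 24.3% to 48.3% of the chromosome extent, at the edge of the sparse interior or within it.

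Within replicate 2 itself, the high-scoring unmatched peaks often had company. Another replicate 2 peak of any score lay within 10 kb of 534 of the 1103 (48.4%, 95% interval 45.4% to 51.4%). Of the matched peaks above the threshold, 54.1% had such a neighbour (52.2% to 55.9%), and of the unmatched peaks of lower score 43.8% did (42.3% to 45.2%). In 233 of the 534 (43.6%) the nearest one overlapped replicate 1, close to the 4044 of 9640 among all replicate 2 peaks. That share was 50.7% for the matched peaks with a neighbour and 41.1% for the unmatched ones of lower score. By band of score, which held score alike only in part, the share with a neighbour differed in both directions. It was 49.7% in unmatched and 46.4% in matched peaks from the threshold to 150. From 150 to 200 it was 44.6% (39.4% to 49.9%) and 56.7% (52.8% to 60.6%). From 200 to 300 it was 49.1% and 51.2%, and from 300 to 500 it was 66.7% and 59%. The intervals overlapped in these bands except that of 150 to 200, but they cover counting error only and are no test between the classes.

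Some of the high-scoring unmatched peaks lay close to each other. Taking those within 10 kb of the next as a group, 1000 had no other of the class that close, 88 formed 44 pairs and 15 formed 5 groups of 3. Peaks outside the class were not counted here, and the same grouping is not given for other classes. As a scale, a replicate 2 peak above the threshold, matched or not, lay within 10 kb of 27.7% of the class and of 33.2% of the matched peaks above the threshold. One group of 3 spanned 9524 bp at chr8:165550995-165560518 and began with the peak of score 433.28 described above. Its lowest score was 194.76, and it held no other replicate 2 peak. Another, chr3:159675337-159680615, spanned 5279 bp with scores of 120.2 to 247.7.

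With both lists joined, 542 of the 1103 (49.1%) had no other peak of either replicate within 10 kb. These solitary peaks had a median score of 161.5, a width of 764 bp and a height of 12, and the other 561 had 155.3, 828 bp and 12. Solitary and accompanied peaks thus had like summits, and the solitary ones were slightly narrower.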

How the data were processed

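The members, classes and bands were chosen with earlier results of these data known. Groups and replicate numbers came from the sample titles, and each list was tied to its ChIP library by the description that names it. The authors deposited a peak list per replicate with a score per peak, and a list of summits with the signal height at each summit. The submitters' processing notes name CASAVA, Bowtie 0.12.7 and MACS 1.4.0rc2, without their roles. Chromosome names carry the build AGPv2. The labels name the same lists for the input of each number, and how the inputs entered the peak calls is not stated. None of these state read totals, so the depth behind a height is unknown.

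Coordinates are printed 1-based. Overlaps and distances were computed in Python 3.11.15 with pandas 2.3.3 and NumPy 2.4.6, tested on simulated intervals and checked against bedtools 2.31.1, which found the same 4045 overlapping replicate 2 peaks in the whole list. Distance is the number of bases between intervals. Shares have exact Clopper-Pearson 95% intervals (SciPy 1.17.1). The score threshold was 118, and bands of score were 50, 60, 80, 100, 118, 150, 200, 300 and 500. Left out were 4 replicate 2 and 2 replicate 1 peaks outside chromosomes 1 to 10. Peaks given by position were the 10 of highest score, the highest of each chromosome, the 5 widest, narrowest, tallest, nearest and farthest, and 5 on each side of the threshold, from which scores were summarised. Windows, groups within 10 kb and tables of height or width within score bands were added after the data had been seen. Alternatives were other score thresholds, overlap rules and distances. Expression of neighbouring genes was not analysed here, for lack of gene coordinates.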

Additional observations from a re-analysis of the deposited data

How the results depend on the processing

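The number of high-scoring replicate 2-only peaks, 1103, depended on the rule: it was 620 and 257 at score thresholds of 150 and 200, and 2322 where only replicate 1 peaks of score at least 100 counted as a match. It stayed within 1.5 times at a threshold of 100 (1610), where a match had to cover at least 50% of the replicate 2 peak (1536), where summits had to lie within 200 bp (1407) and where a replicate 1 peak within 500 bp counted (1045). The median width of 787 bp was 762.5, 848.5 and 927 bp at thresholds of 100, 150 and 200, and the median height of 12 was 13 and 15 at 150 and 200. The share in the outer 25% at either end, 68.1%, was 58.5% in the outer 2 of 5 equal parts and 83.3% in the outer 2 of 3, and lay between 65.4% and 68.8% under the other alternatives. The median distance of 50437 bp was 232569 bp to replicate 1 peaks of score at least 100. The matched share of replicate 2 peaks above the threshold, 71.4%, was 60.1% with 50% coverage and 72.9% within 500 bp. The share with a replicate 2 neighbour within 10 kb, 48.4%, was 27.7% for neighbours above the threshold. Each value follows from the narrower or wider definition used.

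No paired analysis was possible because the results come from no test and each replicate has a single list. Leaving out a replicate leaves no rule. The expression test and its alternatives were not run.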

Other observations

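Exactly repeated scores were found in unmatched and in matched replicate 2 peaks. The 1103 high-scoring replicate 2-only peaks held 905 distinct scores, and 263 of them shared theirs with another of the class. The same count is not given for matched peaks, so it is not read as a trait of this class. Its most common score was 162.17, held by 28 of the 1103 and by 70 replicate 2 peaks in all. At this score the 28 unmatched peaks had a median height of 13 and a median width of 701.5 bp, and the matched peaks had 13.5 and 664.5 bp. At the next most common, 125.23, held by 22 unmatched peaks of 46 in all, the median heights were 10 and 10.5 and the widths 669 and 713.5 bp. At 137.29 the heights were 10 and 11.5, and at 149.61 they were 11 and 12. At 187.99, where only 12 unmatched and 9 matched peaks stood, they were 12.5 and 18. At 142.14, held by 8 unmatched peaks of 21 in all, the median height was 13 in both classes. At 174.97 the heights were 10 and 13 and at 228.28 they were 15 and 17, each with 7 unmatched peaks of 23.

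In very narrow peaks the summit stood at the middle. Of the 27 high-scoring unmatched peaks under 400 bp, 25 (92.6%, exact Clopper-Pearson 95% interval 75.7% to 99.1%) had it between 45% and 55% of the way along, against 9 of 53 (17%) at 400 to 500 bp. Matched peaks above the threshold showed 27 of 31 and 28 of 111 in the same width classes, and unmatched peaks below it showed 385 of 460 and 93 of 801.

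An unplaced contig set, named chr0 in the files, held 1 further replicate 2 peak that met the score and overlap conditions. It lay at 2884854 to 2886186 with a score of 197.14 and a height of 11, 7556 bp from a replicate 1 peak.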
